A study of Homo sapiens with 8 samples.

Results

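Heat shock chaperones of the cytosol and of mitochondria were read as 38 genes of the HSP70, HSP110, HSP90, HSP60/HSP10 and DNAJ families, their co-chaperones and 2 heat shock factors, chosen by name from the 25435 gene rows of a read count table. All 38 were rows of that table, and 37 had enough reads to be tested. The exception was DNAJA4, with 0 to 3 counts in any library. The cells were HGC27, an established human gastric cancer line that the labels give as lacking p53. By the sample labels, mutant p53 was overexpressed in it, as R175H, R248Q or R273H, and control cells carried GFP in its place. The series title speaks of p53 KO and KD instead, so the manipulation behind each fold change against GFP rests on the sample labels and the design text. Each of the 4 groups had 2 libraries, 8 in all, from HGC27 grown in alpha-MEM. The labels do not say whether the 2 libraries of a group came from separate cultures, so p-values measure only the spread between these libraries, which may be technical. The labels used here state neither clone number, vector, promoter nor the time of expression.

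HSP70 proteins bind unfolded stretches of other proteins and release them in a cycle driven by ATP. J-domain proteins (DNAJ) bring clients and start the cycle, and HSP110 proteins and BAG proteins exchange the nucleotide that ends it. HSP90 receives part-folded clients from HSP70 through the adaptor STIP1 and works with co-chaperones that recruit kinases, speed or slow its ATPase, or bind steroid receptors. Mitochondria hold their own set, with HSPA9 as HSP70, TRAP1 as HSP90, DNAJA3 as J protein, and a chamber of HSPD1 closed by its lid HSPE1. Many of these genes exist as a constitutive form and a form that heat shock factor 1 induces, and p53 with a structural mutation is a known client of HSP70 and HSP90. R175H is usually classed as a structural mutant, and R248Q and R273H as mutants of DNA contact.

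Total counts were 6800463 to 11788035 per library. GFP replicate 1 stood apart. The counts of the 2 GFP libraries differed by a chi-square of 6.02 per degree of freedom over genes, against 1.22 to 1.63 within the mutant groups, and its median log2 deviation was 0.129 for the 2171 genes with transcripts under 2000 nt and -0.212 for the 1683 from 6000 nt up. Results against GFP are therefore also given without it. As a check of the labelled cell type, epithelial markers were low, with EPCAM at 1 to 3 counts and CDH1 at 0 to 2 counts. Of the gastric list, TFF1, TFF2, GKN1 and PGC were at 0, but GATA4 had 168 to 343 counts. The 7 gastric markers in the table summed to 22.9 to 29.4 CPM over the libraries. The 8 epithelial markers summed to 14.0 and 15.5 CPM (counts scaled to library size) in the R175H libraries, against 10.4 to 12.6 CPM in the other 6 libraries, and 2 of 8 were tested. Fibroblast and mesenchymal markers, 8 of 8 tested, summed to 10400 to 10500 CPM in R175H, 9710 to 9910 CPM in R248Q, 10200 CPM in R273H and 9460 to 9820 CPM in GFP libraries. Blood markers summed to at most 4.82 CPM (CD3E and HBB at 0) and endothelial markers to at most 2.99 CPM (CDH5 and KDR at 0). Some markers differed between groups. R175H libraries had more CLDN7, a tight junction gene, than GFP (log2 fold change 0.65 ± 0.16, adjusted p = 0.015, lost without either R175H library at 0.61 to 0.69), and more VIM (0.20 ± 0.04, adjusted p = 0.0089, lost without R175H replicate 1 at 0.18). Against R248Q and R273H, R175H had less KRT8 (-2.97, lost without R175H replicate 2 at -2.76, and -2.25, lost without any 1 mutant library but R273H replicate 1 at -2.43 to -1.67), at 3 counts in each R175H library, and less COL1A1 (-0.49 and -0.47). CLDN7 went the other way, at 0.77 against R248Q and 0.77 against R273H. Both CLDN7 calls were lost without either R175H library, among others (0.63 to 0.81 and 0.66 to 0.82). VIM was also higher, at 0.28 against R248Q (lost without R248Q replicate 2 at 0.26). Against R273H it was at 0.17, lost without any 1 of the 6 mutant libraries (0.15 to 0.18). Against GFP, in edgeR's quasi-likelihood test, COL1A1 was higher in R248Q (0.37, adjusted p = 0.00043) and R273H (0.35, adjusted p = 0.0038). It was not called in R175H (-0.12, adjusted p = 0.17). KRT8 was higher in R248Q than in GFP (1.32, adjusted p = 0.036) and not called in R175H (-1.65, adjusted p = 0.1). PDGFRB was higher in R273H (0.76, adjusted p = 0.036) and LUM lower in R248Q (-0.28, adjusted p = 0.012). The part of these differences in the chaperone results was not tested. Counts per gene come from whole cultures, so fewer cells with a transcript and less transcript per cell cannot be told apart.

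Many of the chaperones were lowest in cells with R175H. Against GFP, 19 of the 37 tested members were lower and 0 higher at an adjusted p under 0.05 in edgeR's quasi-likelihood test, where 4.59% of all 13213 genes tested were lower and 6.39% higher. The members' median log2 fold change was -0.21, against 0.01 for all genes tested, and 32 of 37 lay below 0. The inducible HSPA1B, HSPH1 and HSP90AA1, the constitutive HSPA8, the J proteins DNAJA1 and DNAJB1 and all 6 HSP90 co-chaperones fell. The mitochondrial HSPA9, TRAP1 and DNAJA3 had log2 fold changes of -0.07 to 0.03 and did not pass. Without GFP replicate 1, 20 members were lower, against 5.42% of genes. Without R175H replicate 1, and likewise without R175H replicate 2, 12 were lower, against 1.14% and 1.33% of genes.

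**Figure D1:**
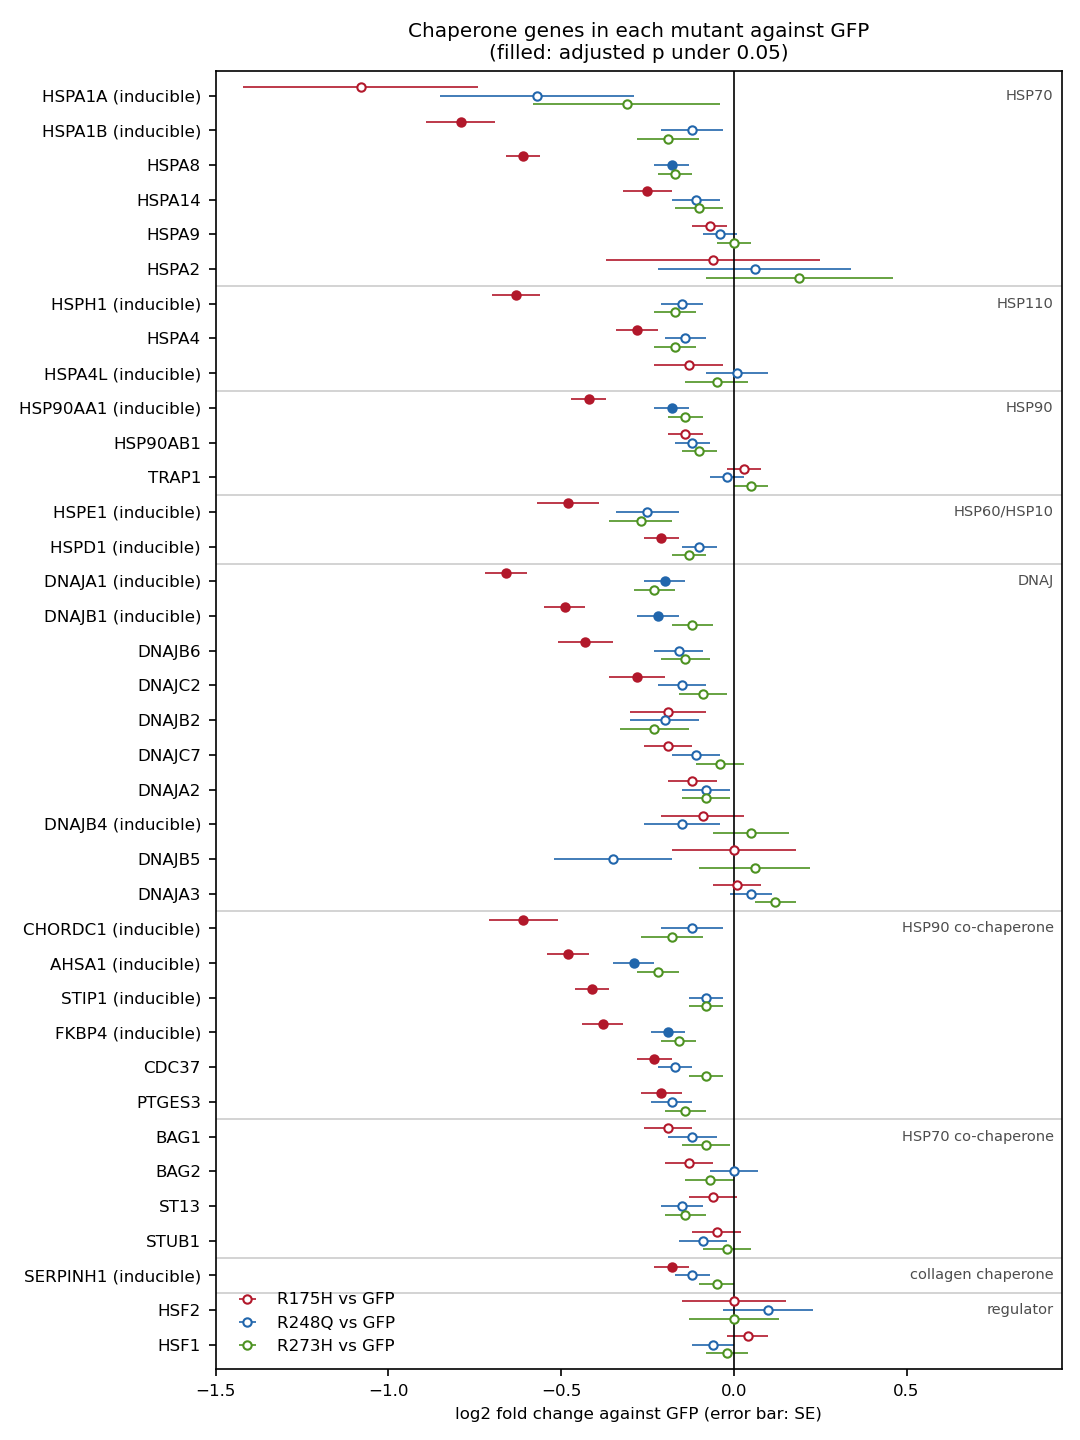
Log2 fold change (x axis, error bars SE) of the 37 tested chaperone genes in R175H, R248Q and R273H against GFP, by family, with filled points for an adjusted p under 0.05. The 19 filled R175H points lie between -0.79 and -0.18, while 6 R248Q points and 0 R273H points are filled.

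Together the 38 genes took 1.40% of the reads in each R175H library, 1.58% and 1.57% in the R248Q libraries, 1.58% and 1.59% in the R273H libraries, and 1.77% and 1.69% in the GFP libraries. HSPA8, HSP90AA1 and HSP90AB1 made up 49.5% to 52.0% of the member reads in every library. Per kilobase of transcript, the level over all libraries was highest for HSP90AB1 (1223 CPM per kb), then HSPA8 (919 CPM per kb), HSP90AA1 (733 CPM per kb) and HSPD1 (499 CPM per kb). The inducible HSP70 genes were far lower, at 19.6 CPM per kb for HSPA1B and 1.22 CPM per kb for HSPA1A.

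HSPA8, the constitutive cytosolic HSP70, had 1724 and 1739 CPM in R175H, 2355 and 2302 CPM in R248Q, 2328 and 2368 CPM in R273H, and 2688 and 2603 CPM in GFP libraries. Both R175H libraries lay below the other 6. Its log2 fold change in R175H against GFP was -0.61 ± 0.05 (SE, n = 2 libraries each; edgeR's quasi-likelihood test, adjusted p = 6.4e-07), so that it fell by 34.6%. The call held in all 18 alternatives.

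HSPA1B, the main stress-induced HSP70 gene detected here, had 31.3 and 36.3 CPM in R175H, 53.3 and 54.7 CPM in R248Q, 51.5 and 51.5 CPM in R273H, and 64.2 and 53.0 CPM in GFP libraries. R175H again lay below all others, with a log2 fold change against GFP of -0.79 ± 0.10 (adjusted p = 0.00014), and of -0.64 without GFP replicate 1. Its near-identical neighbour HSPA1A had 2.80 and 1.23 CPM in R175H, 2.98 and 2.48 CPM in R248Q, 2.76 and 3.76 CPM in R273H, and 3.91 and 4.21 CPM in GFP libraries, from 11 to 44 counts. Its log2 fold change of -1.08 ± 0.34 missed the threshold (adjusted p = 0.052), though not without GFP replicate 1 (-1.13, adjusted p = 0.039), and reads of the 2 copies may have been split uncertainly. With both copies summed, the log2 fold change was -0.80 ± 0.09 (adjusted p = 5.7e-05).

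HSPA14, a ribosome-associated HSP70, had 76.9 and 79.8 CPM in R175H, 85.6 and 86.9 CPM in R248Q, 84.6 and 89.5 CPM in R273H, and 90.0 and 96.7 CPM in GFP libraries. R175H was lowest, and the log2 fold change against GFP was -0.25 ± 0.07 (adjusted p = 0.03), a call lost without any 1 of the 6 mutant libraries (-0.28 to -0.23). HSPA2, best known from the testis, had 33 to 81 counts with overlapping groups (log2 fold change -0.06 ± 0.31).

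Among the HSP110 proteins, which act as nucleotide exchange factors of HSP70, the inducible HSPH1 had 123 and 108 CPM in R175H, 158 and 162 CPM in R248Q, 158 and 158 CPM in R273H, and 174 and 182 CPM in GFP libraries. R175H did not overlap any other group, and its log2 fold change against GFP was -0.63 ± 0.07 (adjusted p = 1.7e-05). The constitutive HSPA4 had 278 and 252 CPM in R175H, 291 and 295 CPM in R248Q, 289 and 285 CPM in R273H, and 320 and 323 CPM in GFP libraries. R175H was again lowest, with a log2 fold change of -0.28 ± 0.06 (adjusted p = 0.0052), and the call was lost without R175H replicate 2 (-0.21). HSPA4L, the third of the family, had 32.0 to 37.9 CPM and did not pass (-0.13 ± 0.10).

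Of the J proteins, 4 of 10 tested were lower. DNAJA1, a partner of HSPA8 known to bind and stabilise misfolded mutant p53, had 193 and 204 CPM in R175H, 273.3 and 273.5 CPM in R248Q, 269 and 265 CPM in R273H, and 324 and 303 CPM in GFP libraries. The R175H libraries were well below the rest (log2 fold change against GFP -0.66 ± 0.06, adjusted p = 2.4e-06). DNAJA2, its constitutive relative, had 77.3 and 76.7 CPM in R175H, 76.8 and 81.7 CPM in R248Q, 76.3 and 82.5 CPM in R273H, and 87.1 and 80.7 CPM in GFP libraries. Its groups overlapped between the mutants and it did not pass (-0.12 ± 0.07).

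DNAJB1, the main stress-induced J protein of the cytosol, had 124 and 135 CPM in R175H, 155 and 158 CPM in R248Q, 171 and 166 CPM in R273H, and 178 and 187 CPM in GFP libraries. R175H was lowest, with a log2 fold change against GFP of -0.49 ± 0.06 (adjusted p = 0.00011). The DNAJB1 locus overlaps TECR on the other strand, so that its counts are uncertain where strand was not used. DNAJB6, which suppresses the aggregation of polyglutamine proteins, had 59.8 and 68.4 CPM in R175H, 76.1 and 79.2 CPM in R248Q, 76.3 and 80.2 CPM in R273H, and 87.0 and 86.1 CPM in GFP libraries. Again R175H was lowest (-0.43 ± 0.08, adjusted p = 0.0021), with the call lost without R175H replicate 1 (-0.34). DNAJC2, a ribosome-associated J protein, had 47.4 and 50.8 CPM in R175H, 53.9 and 53.6 CPM in R248Q, 57.2 and 54.8 CPM in R273H, and 59.9 and 59.2 CPM in GFP libraries. Its log2 fold change of -0.28 ± 0.08 (adjusted p = 0.031) was lost without any 1 of the 6 mutant libraries (-0.33 to -0.23), and it overlaps PMPCB on the other strand. DNAJB2, DNAJB4, DNAJB5 and DNAJC7 had log2 fold changes of -0.19 to 0.00 and did not pass.

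HSP90 split by form. The inducible HSP90AA1 had 2117 and 2073 CPM in R175H, 2482 and 2470 CPM in R248Q, 2521 and 2557 CPM in R273H, and 2903 and 2695 CPM in GFP libraries, with R175H below all others (log2 fold change against GFP -0.42 ± 0.05, adjusted p = 5.8e-05). The constitutive HSP90AB1, the most abundant member, had 3123 and 3202 CPM in R175H, 3223 and 3179 CPM in R248Q, 3208 and 3264 CPM in R273H, and 3657 and 3300 CPM in GFP libraries. The mutant groups overlapped, both GFP libraries lay above them with GFP replicate 1 the farther, and the gene did not pass (-0.14 ± 0.05, adjusted p = 0.11). HSP90AA1 overlaps WDR20 on the other strand, a gene with at most 301 counts. Partners on the other strand also lie at AHSA1 (VIPAS39), DNAJC7 (CNP and NKIRAS2), STUB1 (JMJD8), TRAP1 (DNASE1), BAG2 (RAB23), HSF1 (DGAT1), HSPA14 (CDNF) and between HSPD1 and HSPE1, and the strand setting of the counts is not stated.

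**Figure D2:**
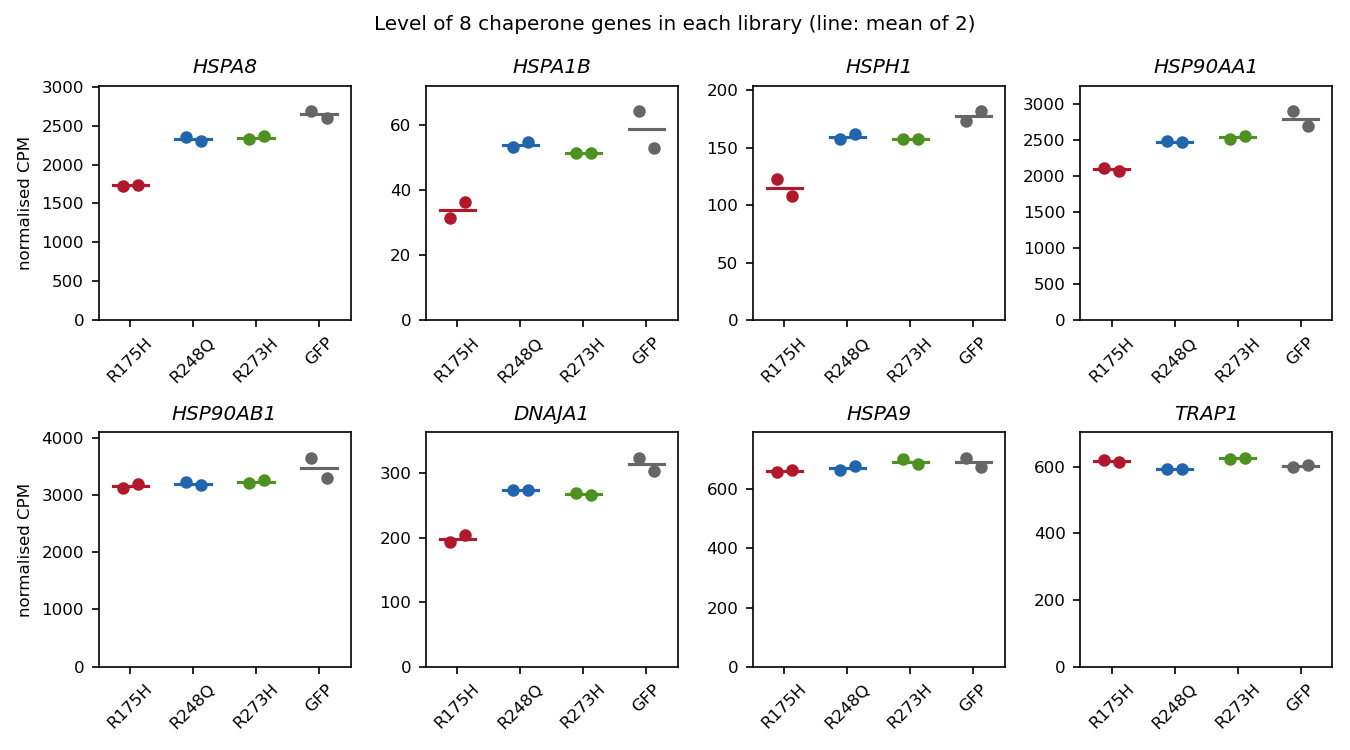
Normalised CPM (y axis from 0) of 8 chaperone genes in each library of R175H, R248Q, R273H and GFP, with a line at the mean of 2. HSPA8, HSPA1B, HSPH1, HSP90AA1 and DNAJA1 are lowest in both R175H libraries (HSPA8 at 1724 and 1739 CPM), whereas TRAP1 in R175H (621 and 614 CPM) lies among the other groups.

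All 6 HSP90 co-chaperones were lower in R175H than in GFP. AHSA1, which activates the HSP90 ATPase, had 195 and 198 CPM in R175H, 226 and 223 CPM in R248Q, 229 and 240 CPM in R273H, and 289 and 258 CPM in GFP libraries. R175H lay below all others (log2 fold change against GFP -0.48 ± 0.06, adjusted p = 0.00015, and -0.39 without GFP replicate 1). CHORDC1, a stress-responsive HSP90 partner, had 28.2 and 27.0 CPM in R175H, 39.3 and 37.7 CPM in R248Q, 36.7 and 37.1 CPM in R273H, and 45.5 and 38.3 CPM in GFP libraries. Its log2 fold change was -0.61 ± 0.10 (adjusted p = 0.0011), and -0.47 without GFP replicate 1. STIP1, the adaptor between HSP70 and HSP90, had 324 and 331 CPM in R175H, 410 and 415 CPM in R248Q, 409 and 416 CPM in R273H, and 447 and 425 CPM in GFP libraries. R175H again lay below all others (-0.41 ± 0.05, adjusted p = 0.00013).

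FKBP4, an immunophilin that binds HSP90 in steroid receptor complexes, had 346 and 368 CPM in R175H, 401 and 415 CPM in R248Q, 416 and 417 CPM in R273H, and 478 and 454 CPM in GFP libraries (R175H against GFP -0.38 ± 0.06, adjusted p = 0.00034). CDC37, which brings kinases to HSP90, had 362 and 360 CPM in R175H, 376 and 380 CPM in R248Q, 393 and 409 CPM in R273H, and 429 and 420 CPM in GFP libraries. The log2 fold change of -0.23 ± 0.05 (adjusted p = 0.0087) did not pass without either R175H library (-0.24 and -0.23). PTGES3 (p23), which stabilises the closed form of HSP90, had 607 and 607 CPM in R175H, 629 and 612 CPM in R248Q, 632 and 639 CPM in R273H, and 744 and 661 CPM in GFP libraries. R175H lay lowest at -0.21 ± 0.06 against GFP (adjusted p = 0.028), a call lost without any 1 of the 6 mutant libraries at the same -0.21, and it was -0.12 without GFP replicate 1.

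Of the HSP70 co-chaperones, 0 of 4 were called by edgeR, DESeq2 or limma-voom. At an unadjusted p under 0.05, for which the share of all genes is not given here, 1 was lower. BAG1, a nucleotide exchange factor, had 93.0 and 98.6 CPM in R175H, against 116 and 103 CPM in GFP libraries (log2 fold change -0.19 ± 0.07, adjusted p = 0.11). BAG2, STUB1, the ubiquitin ligase CHIP, and ST13, which stabilises HSP70 with bound client, had log2 fold changes of -0.13, -0.05 and -0.06.

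The 2 heat shock factors were at similar levels in all groups. HSF1, the main inducer of this family, had 97.7 and 101 CPM in R175H, 90.4 and 94.8 CPM in R248Q, 95.8 and 94.9 CPM in R273H, and 97.5 and 95.6 CPM in GFP libraries (R175H against GFP 0.04 ± 0.06, adjusted p = 0.73). HSF2 had 16.1 to 21.7 CPM (0.00 ± 0.15). These are transcript levels, and activity of either factor was not measured.

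In mitochondria, the chaperonin pair was called lower and the other 3 members were not, a difference between members that was not tested. HSPD1 (HSP60) had 1141 and 1142 CPM in R175H, 1248 and 1218 CPM in R248Q, 1207 and 1209 CPM in R273H, and 1380 and 1255 CPM in GFP libraries. R175H was lowest, with a log2 fold change against GFP of -0.21 ± 0.05 (adjusted p = 0.02), lost without any 1 of the 6 mutant libraries (-0.21) and -0.14 without GFP replicate 1. HSPE1 (HSP10), its lid, had 81.2 and 84.3 CPM in R175H, 101 and 93.6 CPM in R248Q, 95.0 and 96.9 CPM in R273H, and 129 and 102 CPM in GFP libraries. Its log2 fold change was -0.48 ± 0.09 (adjusted p = 0.0028), and -0.30 without GFP replicate 1 (adjusted p = 0.0019). The call was lost without R175H replicate 1 (-0.45). HSPE1 has the shortest transcript of the members at 950 nt, the class of length in which GFP replicate 1 stood high.

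HSPA9 (mortalin), the mitochondrial HSP70, had 658 and 666 CPM in R175H, 667 and 680 CPM in R248Q, 704 and 685 CPM in R273H, and 708 and 677 CPM in GFP libraries, with R175H just below the others, a difference that did not pass (-0.07 ± 0.05, adjusted p = 0.45). TRAP1, the mitochondrial HSP90, had 621 and 614 CPM in R175H, 595 and 594 CPM in R248Q, 623 and 628 CPM in R273H, and 600 and 607 CPM in GFP libraries (0.03 ± 0.05). DNAJA3, the mitochondrial J protein, had 155 and 140 CPM in R175H, against 141 and 152 CPM in GFP libraries (0.01 ± 0.07). SERPINH1 (HSP47), a collagen chaperone of the endoplasmic reticulum under heat shock control, had 700.1 and 708 CPM in R175H, 729 and 741 CPM in R248Q, 760 and 778 CPM in R273H, and 788 and 809 CPM in GFP libraries. Its change of -0.18 ± 0.05 (adjusted p = 0.027) was lost without any 1 of the 6 mutant libraries (-0.19 to -0.17).

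Classes were assigned by gene from textbook knowledge of the heat shock response, with earlier results of these data known. Sorted by class, 12 of 15 tested inducible members and 7 of 22 constitutive members were lower in R175H than in GFP, where 4.59% of all genes tested were lower. The median log2 fold changes of the 2 classes were -0.48 and -0.13. By place, 16 of 29 tested cytosolic and 2 of 5 mitochondrial members were lower, with medians of -0.25 and -0.07. Within the cytosol alone, 9 of 12 inducible (median -0.48) and 7 of 17 constitutive members (median -0.19) were lower. At an unadjusted p under 0.05, 0 members were higher in any of the 6 comparisons made here, and DESeq2 and limma-voom called 0 higher. With GFP replicate 1 left out, the members called lower were 13 of 15 inducible, 7 of 22 constitutive, 17 of 29 cytosolic and 2 of 5 mitochondrial members. These counts describe the classes and were not tested against each other. Both mitochondrial members called were of the inducible class, so place and class overlap in this list.

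**Figure D3:**
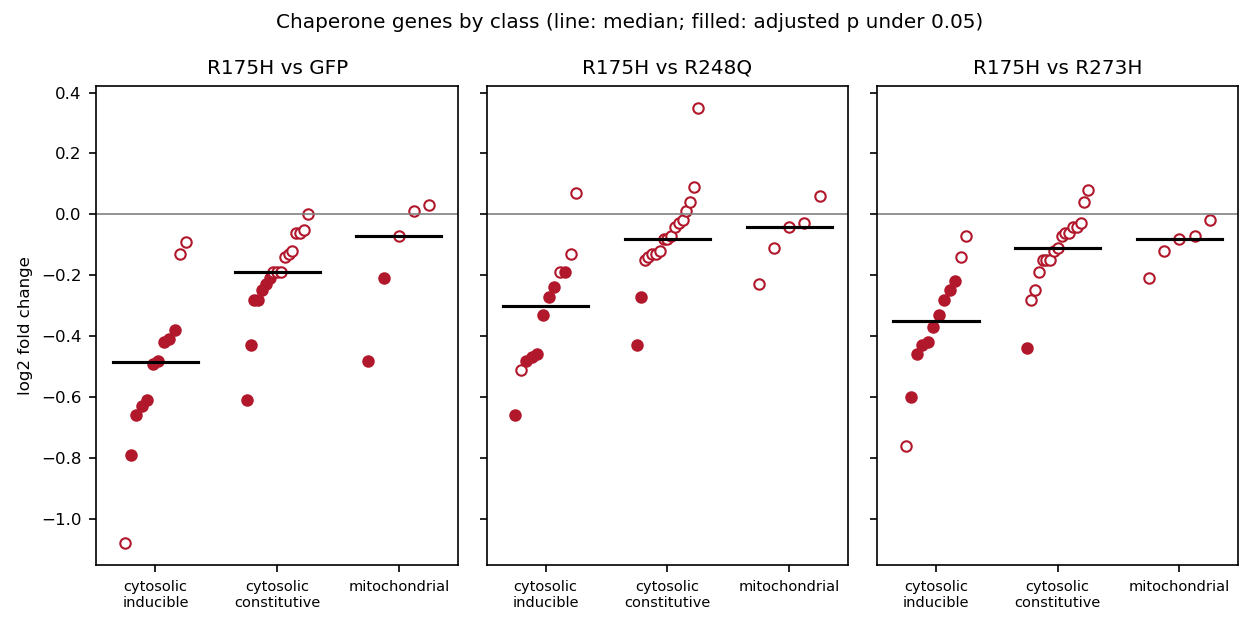
Log2 fold change (y axis) of each tested member by class in R175H against GFP, R248Q and R273H, with a line at the median and filled points for an adjusted p under 0.05. Cytosolic inducible members have medians of -0.48, -0.30 and -0.35, below the mitochondrial medians of -0.07, -0.04 and -0.08. The mitochondrial members are of both induction classes, with the inducible HSPE1 at -0.48 against GFP, so these medians do not separate place from class.

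The contrast of an inducible with a constitutive partner was also read within each library, as a log2 ratio of CPM per kb. HSP90AA1 over HSP90AB1 was -0.90 and -0.96 in R175H, -0.71 and -0.70 in R248Q, -0.69 and -0.69 in R273H, and -0.67 and -0.63 in GFP libraries. HSPH1 over HSPA4 was -1.29 and -1.32 in R175H, -0.99 and -0.97 in R248Q, -0.98 and -0.96 in R273H, and -0.99 and -0.93 in GFP libraries. DNAJA1 over DNAJA2 was 1.71 and 1.80 in R175H, 2.22 and 2.13 in R248Q, 2.21 and 2.08 in R273H, and 2.29 and 2.30 in GFP libraries. In these 3 ratios both R175H libraries lay below the other 6, so the inducible partner was lower relative to the constitutive one.

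HSPE1 and HSPD1 are both of the inducible class, so their ratio does not set an inducible against a constitutive partner. The ratio of HSPE1 to HSPD1 was -2.44 and -2.39 in R175H, -2.26 and -2.33 in R248Q, -2.30 and -2.27 in R273H, and -2.05 and -2.25 in GFP libraries, a narrower gap. DNAJB1 over DNAJB6 was 0.56 and 0.49 in R175H, 0.53 and 0.50 in R248Q, 0.67 and 0.55 in R273H, and 0.54 and 0.62 in GFP libraries, and did not separate the groups. HSPA1A and HSPA1B together over HSPA8 gave -5.69 and -5.57 in R175H, -5.42 and -5.36 in R248Q, -5.46 and -5.45 in R273H, and -5.33 and -5.54 in GFP libraries. R175H was lowest there by a small margin, and with HSPA1B alone the R175H libraries (-5.82 and -5.61) overlapped GFP (-5.42 and -5.65). These ratios are a description, given without a test.

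**Figure D4:**
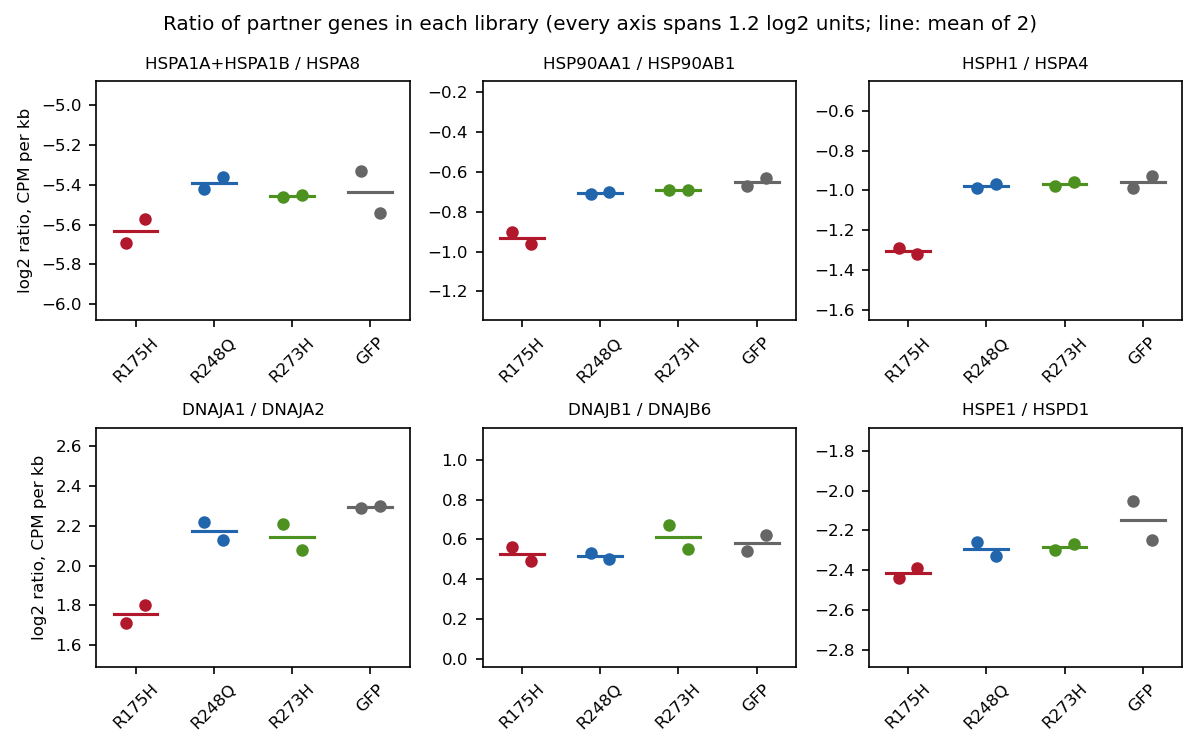
Log2 ratio of CPM per kb between partner genes (y axis, each spanning 1.2 log2 units) in each library of R175H, R248Q, R273H and GFP, with a line at the mean of 2. HSP90AA1 / HSP90AB1, HSPH1 / HSPA4 and DNAJA1 / DNAJA2 are lowest in both R175H libraries, and DNAJB1 / DNAJB6 (0.49 to 0.67) does not separate the groups.

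Heat shock factor 1 binds as a trimer to inverted repeats of a short unit, nGAAn. Promoter sequences (250 bases before to 50 after the start, RefSeq, GRCh38.p14) matched 33 of the 38 members. Windows with 2 such units (GAANNTTC or TTCNNGAA, each of which reads the same on both strands) were 27.3% of the members' and 13.7% of all 27305 windows. With 3 units (GAANNTTCNNGAA or TTCNNGAANNTTC, both strands covered, each containing the shorter motif), the members' share was 15.2%, in 5 windows, and that of all windows 0.487%. The 5 were those of HSPA8, DNAJA1, DNAJB6, CHORDC1 and SERPINH1. All 5 genes were lower in R175H than in GFP, where 4.59% of all genes tested were lower. These 5 are shown since they are the members with the longest match, with the units GAA or TTC in capitals.
HSPA8 (chr11:123062157-123062206, minus strand): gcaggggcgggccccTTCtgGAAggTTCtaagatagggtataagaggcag
DNAJA1 (chr9:33025273-33025292, plus strand): gcgGAActTTCcaGAAcgct
DNAJB6 (chr7:157336859-157336903, plus strand): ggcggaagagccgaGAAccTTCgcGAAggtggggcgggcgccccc
CHORDC1 (chr11:90223070-90223124, minus strand): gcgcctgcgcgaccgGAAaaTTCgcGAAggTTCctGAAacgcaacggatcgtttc
SERPINH1 (chr11:75562163-75562212, plus strand): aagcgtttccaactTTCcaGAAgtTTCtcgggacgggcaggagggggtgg
The stretch of DNAJA1 starts at the first transcribed base, and the others lie upstream of the start. CHORDC1 has 5 units in a row. HSPA1B holds a 2-unit match, which is given beside the longer ones because this gene had the largest called fall.
HSPA1B (chr6:31827618-31827657, plus strand): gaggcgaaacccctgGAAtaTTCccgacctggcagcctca
In R175H against GFP, the 5 genes with 3 units had a median of -0.61 on the log2 scale. The 27 tested genes whose window lacked them had a median of -0.19, and 12 of these 27 were lower. The members were picked as heat shock genes, and the share lower among all 133 windows with 3 units is not given here. Whether the motif goes with the fall was not tested. HSPH1, HSP90AA1, DNAJB1, AHSA1 and STIP1 fell with none of these letters in their windows, which says only that this stretch does not hold them. HSPD1 and HSPE1 start head to head, with 104 bases between their starts, printed from the HSPE1 strand to show the stretch both share.
HSPE1 and HSPD1 (chr2:197500275-197500378, plus strand): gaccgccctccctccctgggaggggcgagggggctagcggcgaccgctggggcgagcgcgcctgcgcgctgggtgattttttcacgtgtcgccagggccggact

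Cells with R175H were then compared with the other mutants, in 2 comparisons that share the R175H libraries. The GFP libraries enter these folds only through the spread and filter that all 8 libraries set in 1 fit. Against R248Q, 10 of 37 members were lower and 0 higher, where 3.22% of all genes were lower and 3.95% higher, and the members' median log2 fold change was -0.12. Those called were HSPA1B (-0.66 ± 0.10, adjusted p = 0.00061), CHORDC1 (-0.48), HSPH1 (-0.47), DNAJA1 (-0.46), HSPA8 (-0.43), STIP1 (-0.33), DNAJB1 (-0.27), DNAJB6 (-0.27), HSP90AA1 (-0.24) and FKBP4 (-0.19). By class these were 8 of 15 inducible and 2 of 22 constitutive members, and 0 of the 5 mitochondrial ones, of which 1, HSPE1, had an unadjusted p under 0.05 (-0.23 ± 0.09). Leaving out GFP replicate 1 gave 14 members lower, against 9.04% of genes, among them 11 of 15 inducible, 3 of 22 constitutive and 2 of 5 mitochondrial members, HSPD1 (-0.11) and HSPE1 (-0.23). Calls for HSPA1B, HSPH1, DNAJA1, HSPA8 and STIP1 held in all 18 alternatives. Without any 1 library of R175H or R248Q, those of DNAJB1 (-0.33 to -0.21) and HSP90AA1 (-0.26 to -0.23) were lost, and so was CHORDC1 without either R175H library or R248Q replicate 1 (-0.51 to -0.45). DNAJB6 (-0.38 to -0.18) and FKBP4 (-0.24 to -0.15) were lost without any 1 of the 6 mutant libraries.

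Against R273H, 10 of 37 members were again lower and 0 higher, where 1.41% of all genes were lower and 2.22% higher, with a member median of -0.14. Called were HSPA1B (-0.60 ± 0.10, adjusted p = 0.0028), HSPH1 (-0.46), HSPA8 (-0.44), DNAJA1 (-0.43), CHORDC1 (-0.42), DNAJB1 (-0.37), STIP1 (-0.33), HSP90AA1 (-0.28), AHSA1 (-0.25) and FKBP4 (-0.22). They comprised 9 of 15 inducible and 1 of 22 constitutive members, and 0 of the 5 mitochondrial ones, of which HSPE1 again had an unadjusted p under 0.05 (-0.21 ± 0.09). Leaving out GFP replicate 1 gave 15 members lower, against 5.76% of genes, among them 11 of 15 inducible, 4 of 22 constitutive and 1 of 5 mitochondrial members, HSPE1 (-0.21). HSPH1, HSPA8 and DNAJA1 held in all 18 alternatives. HSPA1B was lost without R175H replicate 1 (-0.50), STIP1 without R273H replicate 2 (-0.32), DNAJB1 without R175H replicate 1 or R273H replicate 1 (-0.35 to -0.32), and HSP90AA1 without R175H replicate 2 or either R273H library (-0.29 to -0.26). AHSA1 (-0.29 to -0.22), CHORDC1 (-0.45 to -0.39) and FKBP4 (-0.27 to -0.18) were lost without any 1 of the 6 mutant libraries.

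In level alone, both R175H libraries lay below the other 6 for 22 of 37 members, where 10.9% of all genes did so. The 22 comprised 12 of 15 inducible and 10 of 22 constitutive members, or 18 of 29 cytosolic and 3 of 5 mitochondrial ones.

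R248Q was lower than GFP for 6 of 37 members and higher for 0, where 1.44% of all genes were lower and 4.88% higher. The member median was -0.12. The 6 were AHSA1 (-0.29 ± 0.06, adjusted p = 0.0088), DNAJB1 (-0.22, adjusted p = 0.035), DNAJA1 (-0.20, adjusted p = 0.046), FKBP4 (-0.19, adjusted p = 0.046), HSPA8 (-0.18, adjusted p = 0.026) and HSP90AA1 (-0.18, adjusted p = 0.043). Of the 6, 5 were inducible and 1, HSPA8, constitutive, and none of the 5 mitochondrial members passed. No call held in all alternatives. Without R248Q replicate 1, and likewise without R248Q replicate 2, 0 members were called, against 0.217% and 0.202% of genes lower, though the values moved little (AHSA1 -0.29 to -0.28). Over all libraries whose loss ended its call, DNAJB1 was at -0.23 to -0.20, FKBP4 at -0.21 to -0.16, HSPA8 at -0.20 to -0.16, DNAJA1 at -0.20 to -0.15 and HSP90AA1 at -0.18 to -0.17. Without GFP replicate 1, 8 members were lower, against 1.14% of genes, with AHSA1 at -0.20 and DNAJA1 no longer past the threshold (-0.15, adjusted p = 0.065). Without GFP replicate 2, AHSA1 was at -0.37, DNAJA1 at -0.25 and DNAJB1 at -0.19. The count of members called moved with the library left out, as did the share of all genes lower.

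R273H against GFP gave 0 members lower and 0 higher, where 0.25% of all genes were lower and 0.757% higher. At an unadjusted p under 0.05, 12 members were lower and 0 higher, and DESeq2 and limma-voom called 0. The members' median log2 fold change was -0.10, and 31 of 37 lay below 0, with DNAJA1 at -0.23 ± 0.06 (adjusted p = 0.062), AHSA1 at -0.22 ± 0.06 (adjusted p = 0.11) and HSPA8 at -0.17 ± 0.05 (adjusted p = 0.11). For all genes, the shares under that unadjusted p and below 0 are not given here, so the 12 and the 31 are description only. Without GFP replicate 1, HSPA8 (-0.15), DNAJA1 (-0.18) and HSPH1 (-0.20) were called lower, against 0.458% of genes. Without GFP replicate 2, 13 members were lower and 2, DNAJA3 (0.18) and HSPA2 (0.82), higher, against 6.88% and 9.8% of genes. With the correction for transcript length 7 were lower, against 0.863% of genes.

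Between R248Q and R273H, 0 members were lower and 0 higher, where 0.00757% of all genes were lower and 0.144% higher. One member, DNAJB5, a J protein at 5.62 and 5.83 CPM in R248Q, against 7.47 and 7.77 CPM in R273H libraries, had an unadjusted p under 0.05 (log2 fold change -0.41 ± 0.16, adjusted p = 0.53). DESeq2 and limma-voom called 0, and the member median was -0.03. HSPA8 differed by -0.01 ± 0.05, HSP90AA1 by -0.04 ± 0.05 and DNAJA1 by 0.03 ± 0.06.

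Outside the 38 genes, 3 related lists were read in the same fit. Among 33 tested other chaperones and co-chaperones outside mitochondria, 5 were lower and 0 higher in R175H than in GFP, where 4.59% of all genes were lower and 6.39% higher, with a median of -0.08. Without GFP replicate 1, 5 were lower and 2, TOMM34 (0.23) and FKBP8 (0.16), higher, against 5.42% and 6.41% of genes. BAG3, a stress-induced exchange factor of HSP70, had 23.2 and 21.0 CPM in R175H, 25.3 and 26.6 CPM in R248Q, 28.8 and 27.2 CPM in R273H, and 32.6 and 31.6 CPM in GFP libraries. Its log2 fold change against GFP was -0.55 ± 0.10 (adjusted p = 0.0023), lost without R175H replicate 2 (-0.47). NUDC (-0.38, lost without R175H replicate 2 at -0.34), CACYBP (-0.33, lost without R175H replicate 1 at -0.25), SUGT1 (-0.31, lost without R175H replicate 2 or either R248Q library at -0.31 to -0.18) and PPID (-0.30, lost without each library but GFP replicate 2, at -0.35 to -0.16) were the others. In R248Q and R273H against GFP, 0 of these 33 were called in either direction by edgeR, DESeq2 or limma-voom. At an unadjusted p under 0.05, 13 were lower and 1 higher in R248Q, and 6 lower and 1 higher in R273H. The share of all genes at that threshold is not given here, so these counts are description only.

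Of the other mitochondrial chaperones and proteases, 2 of 20 tested were higher and 0 lower in R175H against GFP, near the 6.39% higher and 4.59% lower of all genes, with a median of 0.01. When GFP replicate 1 was left out, 2 were higher and 1, DNAJC11 (-0.21), lower. DESeq2 and limma-voom each called 1 higher and 0 lower. At an unadjusted p under 0.05, for which the share of all genes is not given here, 4 were lower. LONP1, the main protease of the mitochondrial matrix, had 641 and 655 CPM in R175H, 532 and 535 CPM in R248Q, 567 and 575 CPM in R273H, and 514 and 518 CPM in GFP libraries, so that R175H was highest (0.33 ± 0.05, adjusted p = 0.00051). PMPCB, a subunit of the processing peptidase, was at 0.22 ± 0.07 (adjusted p = 0.048), lost without any 1 library but GFP replicate 1 (0.17 to 0.29), and shares its locus with DNAJC2 on the other strand.

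Of targets of the heat shock response that are not chaperones, 2 of 18 tested were higher and 2 lower in R175H against GFP (median -0.07), near the 6.39% and 4.59% of all genes. When GFP replicate 1 was left out, 3 were lower, IER5 (-0.27) among them. The transcription factor JUN had 33.6 and 32.8 CPM in R175H, 19.8 and 20.7 CPM in R248Q, 22.9 and 22.5 CPM in R273H, and 23.0 and 22.4 CPM in GFP libraries (0.55 ± 0.10, adjusted p = 0.0016). ATF3, another stress-induced transcription factor, was higher by 0.48 ± 0.10 (adjusted p = 0.0064), lost without R175H replicate 2 (0.46). The autophagy receptor SQSTM1 was at -0.20 (lost without any 1 of the 6 mutant libraries, -0.22 to -0.18) and MLLT11 at -0.40 (lost without R175H replicate 1, -0.34). In R248Q and in R273H against GFP, 1 of the 18, TSPYL2, was lower (-0.32 and -0.44), and each call was lost without any 1 library but GFP replicate 2 (-0.35 to -0.27 and -0.45 to -0.38).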

How the data were processed

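RNA of HGC27 cells was sequenced as mRNA libraries made with a Roche Kapa kit. Reads were processed with bcl2fastq and STAR 2.5 on hg19, per the submitters' processing notes. The authors deposited raw counts per gene; their counting rule, annotation and strand setting are not stated there.

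Counts of all 8 libraries were fitted in R 4.3.3 with edgeR 4.0.16: filterByExpr (minimum count 10, total 15) kept 13213 genes, TMM scaling, a mean per group, the quasi-likelihood test, and Benjamini-Hochberg adjustment over all genes in each of 6 comparisons, called at adjusted p under 0.05. SE is the absolute log2 fold change over the square root of F. CPM is TMM-normalised. The procedure was tested on simulated data. Lengths and overlapping genes came from GENCODE 29, matched by symbol (93.3% of tested genes). Totals of 6800463 to 11788035 counts put 3 counts at 0.256 to 0.443 CPM.

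Alternatives were DESeq2 1.42.0, limma-voom 3.58.1, other scaling and filters, only the groups compared, a replicate block, a length correction (loess span 0.3 over genes above a log2 CPM of 3) with and without GFP replicate 1, each library left out, and HSPA1A with HSPA1B summed. The members and the lists, and their classes by induction and place, were chosen with earlier results of these data known. All members are accounted for: those called and those of 6 partner pairs are named with their libraries, and called genes of the other lists are named, up to 8 a list. Results for 1 gene are not reported here.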

Additional observations from a re-analysis of the deposited data

How the results depend on the processing

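No call of a member or listed gene changed direction in any alternative (0 reversed). Over 18 alternatives, 10 of the 19 calls in R175H against GFP were kept in all, as were 0 of 6 in R248Q against GFP, 5 of 10 in R175H against R248Q and 3 of 10 in R175H against R273H. Members called lower in R175H against GFP numbered 12 with only the groups compared and 12 to 24 with 1 library left out. For R248Q against GFP they numbered 0 with only the groups compared and 2 with DESeq2, where 0.491% and 0.5% of all genes were lower. For R273H against GFP they numbered 1 with library size alone, 4 with no count filter, 7 with the length correction, 5 with that correction and without GFP replicate 1, and 0 to 13 with 1 library left out, where 0 to 2 were called higher. In R175H against R248Q 5 to 14 were lower with 1 library left out, and in R175H against R273H 5 to 15, or 19 with the length correction and without GFP replicate 1. The share of all genes called lower moved too. With all 8 libraries and with only the groups compared it was 4.59% and 1.46% in R175H against GFP, and 1.44% and 0.491% in R248Q against GFP. In R273H against GFP it was 0.25% with all 8 libraries and 0.863% with the length correction. In R175H against R248Q it was 3.22% with all 8 libraries and 9.04% without GFP replicate 1. In R175H against R273H it was 1.41% with all 8 libraries and 5.76% without GFP replicate 1. It was 7.5% in R175H against R273H with the length correction and without GFP replicate 1, where 19 members were lower. These counts are therefore not read as changes of the chaperones alone. The causes were not tested. With 1 library left out, fewer samples enter the fit.

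Replicate numbers are not said to pair the libraries. The correlations of same-numbered deviations between groups were -0.091 to 0.049, so no shared shift by number was seen. That cannot show whether same-numbered libraries were prepared together. With a replicate block, the counts lower were 16, 1, 0, 8, 8 and 0 in R175H, R248Q and R273H against GFP, R175H against R248Q and R273H, and R248Q against R273H. In the same order, 3.19%, 0.727%, 0.151%, 1.98%, 0.802% and 0% of all genes were lower. With 2 libraries a group, small changes of low genes such as HSPA1A (11 to 44 counts) are beyond the depth.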
